A study of Mus musculus with 7 samples.

Results

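The genes of the chemokine system were examined in the retinal pigment epithelium (RPE) of aged LC3b-/- mice, which lack the autophagy gene Map1lc3b. Membership was set by gene symbol alone: protein-coding genes named Ccl, Cxcl, Ccr, Cxcr or Ackr followed by a digit, and Cx3cl1. This gave 60 of 52740 gene identifiers, namely 39 ligands, 17 receptors and 4 atypical receptors, a class that binds chemokines without the usual G protein signal. Ligands and receptors of the family whose symbols fall outside that rule, such as Cx3cr1 and Pf4, are given where they bear on a member.

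The series holds 7 RNA-seq libraries, 1 per mouse and each from a mouse 24 months old: 4 WT libraries (F1, F2, F3 and M1, that is 3 females and 1 male) and 3 LC3b-/- libraries (F1 and F3, female, and M, male). WT mice were C57BL6/J, whereas the knockout mice were of the line B6;129P2-Map1lc3b tm1Mrab/J, and the absence of the gene and the mixed 129P2 background cannot be told apart. The RPE was released with trypsin from eyecups whose cornea, ciliary body, lens and neural retina had been taken away, and polyA RNA was made into stranded libraries. The labels list no treatment for either group, and replicates are separate mice. The sample titles carry a further number of unstated meaning, which is the same for all WT mice, differs from that of LC3b-/- F1 and F3, and differs again for LC3b-/- M, so that whatever it marks cannot be told apart from genotype or, within LC3b-/-, from sex. In bulk samples of this kind, fewer cells of a type and less RNA per cell cannot be told apart.

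The libraries held 24495952 to 35616134 estimated counts. Map1lc3b read 4444, 2832, 2778 and 2865 counts in the WT libraries and 168, 332 and 229 in the LC3b-/- libraries, so the labels and the targeted gene go together (log2 fold change -3.98, edgeR adjusted p = 0.000186). The 14 RPE markers were detected in every library, but their summed level was 32340 to 50947 CPM (counts scaled to a library of 1000000) in WT and 14424 to 30329 CPM in LC3b-/-, and 13 of 14 had a negative log2 fold change, 8 of them at an unadjusted p under 0.05. Of all genes tested, 10.6% were lower at that mark. Transcripts of other eye tissues were present as well. The 13 ocular surface epithelium markers summed to 10.3 to 2521 CPM in WT and 3545 to 25935 CPM in LC3b-/-, and the 10 endothelium markers to 409 to 1293 CPM and 1470 to 1715 CPM. The part that these transcripts have in the values below was not tested.

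Chemokines are small secreted proteins that draw leukocytes along a gradient by way of membrane receptors coupled to Gi proteins. Most inflammatory ligands are made on demand, after NF-kB or interferon signalling, by resident cells such as epithelium, fibroblasts, endothelium and macrophages, while a few homeostatic ligands are made steadily and place lymphocytes or stem cells in tissues. In the eye, RPE cells can secrete ligands for monocytes and neutrophils, and the Cx3cl1 to Cx3cr1 pair and the Ccl2 to Ccr2 pair are known for guiding microglia and monocytes in the outer retina.

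The sequences that follow are shown because they hold the regulatory letters of the members on which the results turn: Ccl17, the member with the largest log2 fold change, the neutrophil ligands Cxcl1, Cxcl2 and Cxcl3, and Cxcl10, the interferon ligand whose group difference was within the spread of the libraries. Each is the stretch of 250 bases before the RefSeq transcription start, 5′ to 3′ on the strand of the gene, from the GRCm38.p6 build. They lie at chr8:94810203-94810452 (plus strand), chr5:90890995-90891244 (plus), chr5:90903649-90903898 (plus), chr5:90785851-90786100 (plus) and chr5:92348890-92349139 (minus). Capitals mark matches, on either strand, to the NF-kB consensus, to the STAT6 spacing TTCNNNNGAA and to the interferon element ISRE, GAAANNGAAA.
Ccl17: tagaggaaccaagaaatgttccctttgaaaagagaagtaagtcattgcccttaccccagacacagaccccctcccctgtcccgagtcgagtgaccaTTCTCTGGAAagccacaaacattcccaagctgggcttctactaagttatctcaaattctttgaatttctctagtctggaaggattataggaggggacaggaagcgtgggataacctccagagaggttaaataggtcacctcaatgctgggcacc
Cxcl1: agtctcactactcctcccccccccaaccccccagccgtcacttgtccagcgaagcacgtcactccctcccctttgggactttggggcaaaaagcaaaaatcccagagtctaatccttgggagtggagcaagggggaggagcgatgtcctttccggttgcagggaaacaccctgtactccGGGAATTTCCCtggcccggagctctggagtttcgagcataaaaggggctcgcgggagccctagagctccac
Cxcl2: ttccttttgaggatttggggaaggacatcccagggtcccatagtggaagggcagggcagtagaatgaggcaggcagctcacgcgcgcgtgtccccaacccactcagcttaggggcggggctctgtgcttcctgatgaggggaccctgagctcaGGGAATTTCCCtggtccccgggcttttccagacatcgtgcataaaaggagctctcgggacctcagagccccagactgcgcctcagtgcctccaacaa
Cxcl3: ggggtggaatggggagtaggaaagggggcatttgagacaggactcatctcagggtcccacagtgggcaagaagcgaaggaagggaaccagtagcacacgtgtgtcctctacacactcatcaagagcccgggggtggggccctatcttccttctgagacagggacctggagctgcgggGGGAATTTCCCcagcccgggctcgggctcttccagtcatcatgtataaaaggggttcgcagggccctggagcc
Cxcl10: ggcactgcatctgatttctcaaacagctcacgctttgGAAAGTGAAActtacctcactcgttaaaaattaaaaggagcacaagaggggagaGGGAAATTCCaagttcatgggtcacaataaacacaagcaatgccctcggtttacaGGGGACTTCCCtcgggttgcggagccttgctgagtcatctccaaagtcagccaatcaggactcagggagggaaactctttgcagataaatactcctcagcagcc

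The promoters of Cxcl1, Cxcl2 and Cxcl3 held the same stretch, GGGAATTTCCC, which matches the NF-kB consensus on both strands. It ends 61 bases before the start in Cxcl1, 87 in Cxcl2 and 63 in Cxcl3. Cxcl10 held NF-kB matches in a pair of places and an ISRE match. Ccl17 held a STAT6 match (TTCTCTGGAA, 154 to 145 bases before the start) and no NF-kB match. RefSeq promoters were matched for 43 of the 60 members. An NF-kB match was found in 11 of these (25.6%) and in 8.23% of the promoters of 27025 genes, an ISRE match in 3 (6.98% and 3.46%), and a STAT6 match in 1, Ccl17 (2.33% and 6.76%). A match is a description of letters and not of binding.

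Across the family, 43 members passed the filter on low counts and were tested: 31 ligands, 8 receptors and 4 atypical receptors. Of these, 30 had a higher and 13 a lower fitted level in LC3b-/- than in WT, so that 69.8% were higher, against 51.2% of all genes tested. Their median log2 fold change was 0.50, against 0.01 for all genes. By role, the medians were 0.50 for ligands (22 higher, 9 lower), 0.62 for receptors (6 and 2) and 0.31 for atypical receptors (2 and 2). The median rests in part on single mice. Leaving out WT F1 gave 0.83, leaving out LC3b-/- M gave 0.28, leaving out WT F3 gave 0.31, and the females alone gave 0.08, where 56.5% of the members tested were higher.

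A call needed an edgeR adjusted p under 0.05 with at least a 1.5-fold difference in either direction. No member was called, and 0.235% of all genes tested were. The smallest adjusted p of a member was 0.0628, for Ccl17. At an unadjusted p under 0.05, 6 of 43 members were higher (14.0%, where 13.5% of all genes were) and 2 were lower (4.65%, where 10.6% were). The LC3b-/- libraries lay above every WT library for 4 members (9.30%, against 12% of all genes) and below every WT library for 1 (2.33%, against 10.3%). The share of members past these marks in the higher direction was thus near that of genes at large. Ccl17 and Cxcl3 count at both marks, but in WT they reached 10 counts in F1 only and passed the filter through LC3b-/-. A fit limited to genes with at least 10 counts in every library leaves both out. There, 10 of 32 members had an unadjusted edgeR p under 0.05 (31.25%, against 25.7% of all genes). In that fit 4 members did not overlap (12.5%, against 23.2%). DESeq2 called 4 of the 47 members to which it gave an adjusted p (8.51%, against 9.48% of all genes): Ccl17, Cxcl16 and Ccl21a as higher (DESeq2 adjusted p = 2.95e-09, 0.00227 and 0.0387) and Ccl25 as lower (0.0336). limma's voom called 0 members, with 12 of 43 at an unadjusted p under 0.05 (27.9%, where 30.7% of all genes were).

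**Figure D1:**
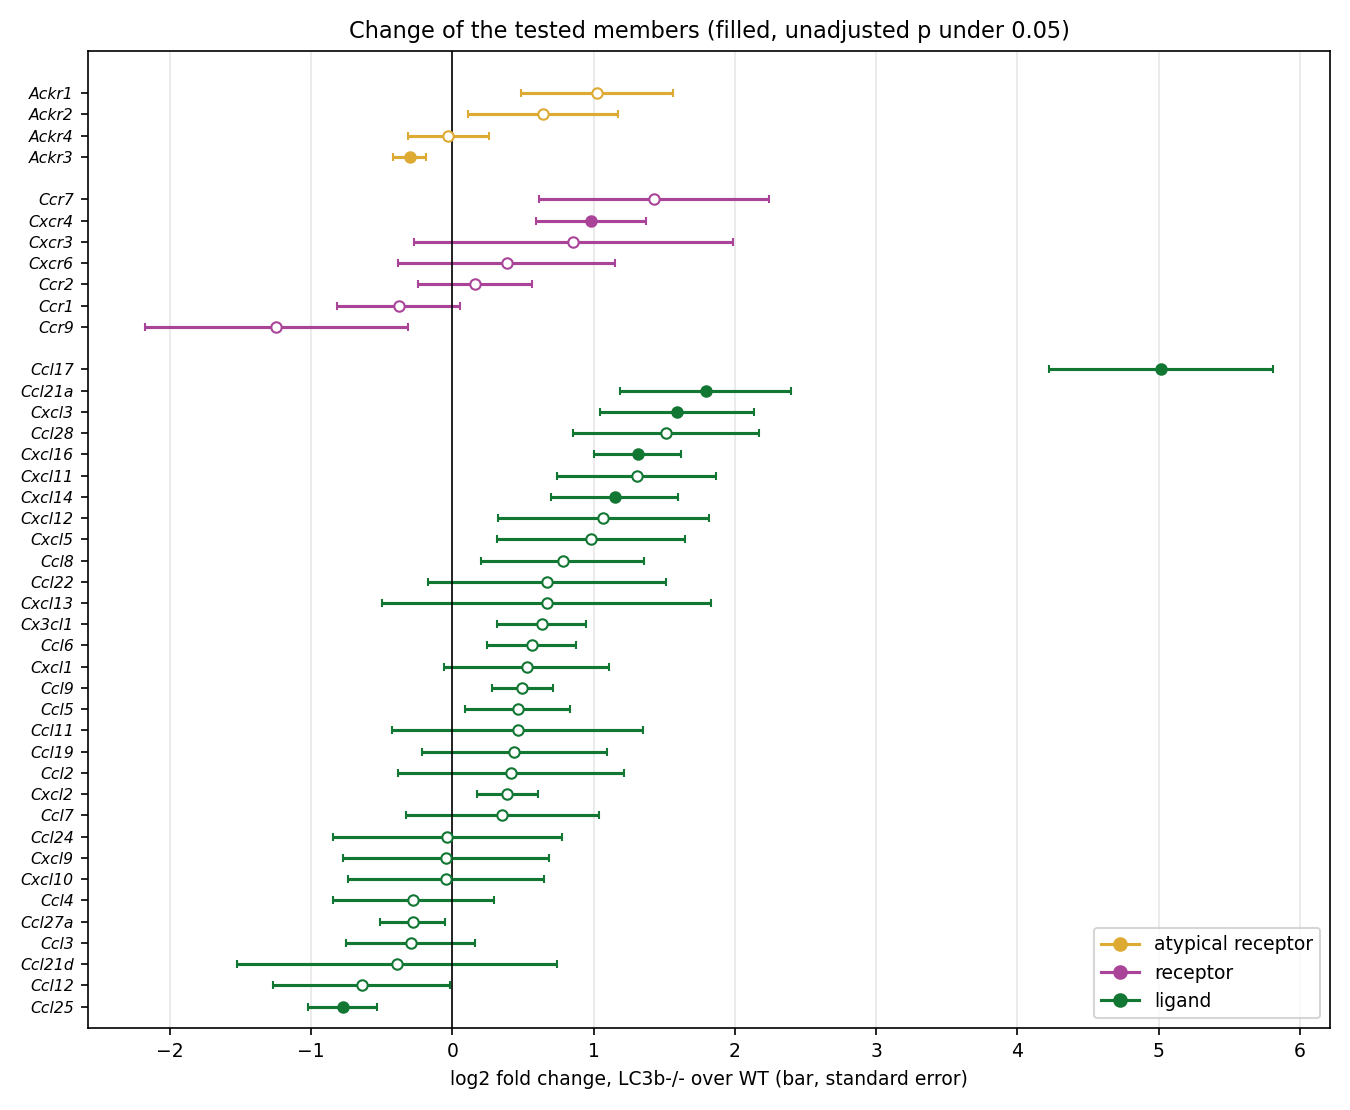
Fitted log2 fold change of the tested members that are reported by name, in LC3b-/- over WT RPE (points, with bars for the standard error), grouped as ligands, receptors and atypical receptors and ordered by size within each. Filled points have an unadjusted p under 0.05. Ccl17 stands apart at 5.02, and most other members lie between -1 and 2 with bars that often reach 0.

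The remaining 17 members gave no test. Ccl20, Ccl21b, Ccl26 and Cxcl15 had 0 counts in the 7 libraries, where 3 counts would correspond to 0.0751 to 0.124 CPM. A further 13 had counts but did not pass the filter: the receptors Ccr1l1, Ccr3, Ccr4, Ccr6, Ccr8, Ccr10, Cxcr1, Cxcr2 and Cxcr5 and the ligands Ccl1, Ccl21f, Ccl27al and Cxcl17. Per kilobase of transcript, Cxcl1 was the most abundant member (65.1 CPM per kb in WT and 93.7 in LC3b-/-), followed by Cxcl10 (50.9 and 49.2), Ccl11 (32.6 and 44.8) and Cxcl12 (25.6 and 53.6). The most abundant receptor was Ackr3, at 24.9 and 20.2 CPM per kb, and among the signalling receptors Cxcr4, at 6.41 and 12.7. The members together took up 0.0313% to 0.126% of the counts of a library.

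**Figure D2:**
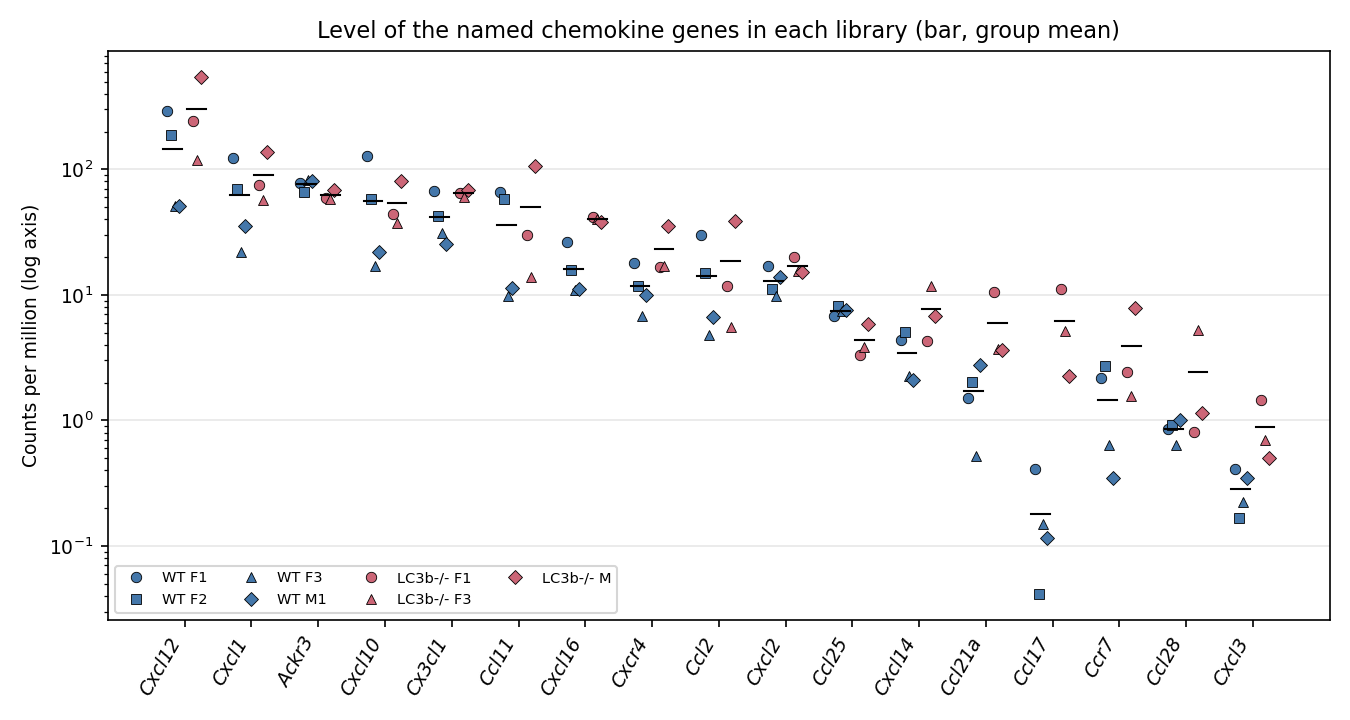
Level of 17 members in each library, in CPM on a log axis, ordered by the mean over all 7 libraries. Blue symbols are WT, red symbols LC3b-/-, each colour and shape together stand for a mouse, and the bar is the group mean. Ccl17, Ccl21a, Cxcl16 and Cxcl3 show red points above all blue ones, Ccl25 shows them below, and the other 12 overlap.

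The ligands of Ccr4 were Ccl17 and Ccl22, which attract type 2 helper and regulatory T cells and are known from dendritic cells and, for Ccl17, from epidermal cells. Ccl17 (chr8:95534358-95538664 in GRCm39) read 14, 1, 4 and 3 counts in WT F1, F2, F3 and M1, or 0.409, 0.0414, 0.150 and 0.115 CPM, and 276, 206 and 77 counts in LC3b-/- F1, F3 and M, or 11.1, 5.16 and 2.27 CPM. The lowest LC3b-/- library (2.27 CPM) lay well above the highest WT library (0.409 CPM), and within LC3b-/- the level was highest in F1 and lowest in M. On the log2 scale the fitted change was 5.02 (SE 0.79), a fold of 32.4, with an edgeR adjusted p of 0.0628.

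Ccl17 was the only member that passed both thresholds with sex as a covariate (adjusted p = 0.0466), without a filter on low counts, and without LC3b-/- M (0.0292), and it passed with Cxcl16 without WT F1 (0.0446). Where a filter was used, Ccl17 passed it through its LC3b-/- counts, so these passes are no separate support for the difference. The fit with at least 10 counts in every library leaves Ccl17 out, and 0 members were called there. Without LC3b-/- F1 its log2 fold change was 4.29 (adjusted p = 0.191). The 13 ocular surface epithelium markers summed to 909, 641, 10.3 and 2521 CPM in the WT libraries (F1, F2, F3, M1) and to 25935, 7216 and 3545 CPM in LC3b-/- F1, F3 and M, the same order of the LC3b-/- libraries as for Ccl17. WT M1 came nearest to LC3b-/- M in that sum, and its Ccl17 level was 0.115 CPM against 2.27 CPM. The part of these epithelial transcripts in Ccl17 was not tested. Dendritic cell markers summed to 6.21 to 18.2 CPM in WT and 13.2 to 21.3 CPM in LC3b-/-.

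Ccl22 lies beside Ccl17 and Cx3cl1 on chromosome 8, the chromosome of Map1lc3b, at a distance of 26.8 Mb from it. Its mean was 1.30 ± 1.13 CPM in WT (SD, n = 4) and 2.08 ± 1.21 CPM in LC3b-/- (SD, n = 3), a log2 fold change of 0.67 with an adjusted p of 0.658. Its levels overlapped between the groups, unlike those of Ccl17. Ccr4, the receptor of both, was barely detected, at 3, 3, 0 and 0 counts in WT and 3, 1 and 5 counts in LC3b-/-.

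Cxcl16 and Cx3cl1 are the transmembrane chemokines, which act as adhesion molecules on the cell and as attractants once shed by Adam10 or Adam17. Cxcl16 (chr11:70344517-70352620 in GRCm39) read 26.3, 15.9, 10.9 and 11.2 CPM in the 4 WT libraries (F1, F2, F3, M1) and 41.7, 40.4 and 37.8 CPM in LC3b-/- F1, F3 and M. The LC3b-/- libraries lay within a narrow band above every WT library, of which WT F1 was the highest. The log2 fold change was 1.31 (SE 0.31), a fold of 2.48, with an adjusted p of 0.0952. It kept its direction in every setting run, and was 1.66 without WT F1 (adjusted p = 0.0328). With any other library left out the adjusted p was above 0.05, from 0.0816 (without LC3b-/- M) to 0.278 (without LC3b-/- F1). With the replicate block, in which only the labels F1 and F3 stand in both groups, the adjusted p was 0.238. The gene shares exon sequence on the opposite strand with Med11 and Zmynd15, whose log2 fold changes were 0.05 and 0.59. Cxcr6, its receptor on T and NK T cells, had a mean of 0.528 ± 0.438 CPM in WT (SD, n = 4) and 0.691 ± 0.0549 CPM in LC3b-/- (SD, n = 3).

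Cx3cl1, or fractalkine, read 67.5, 42.2, 31.1 and 25.5 CPM in the WT libraries in the same order and 65.1, 60.2 and 67.9 CPM in LC3b-/- F1, F3 and M. WT F1 lay among the LC3b-/- libraries and the other WT libraries below them. Fitted over all libraries, its log2 fold change was 0.63 (SE 0.31, adjusted p = 0.260), and it was 0.97 without WT F1. It was 0.45 without WT M1 and 0.41 in the females alone. Its receptor Cx3cr1, carried by microglia and monocytes, read 14.9, 10.2, 2.88 and 7.68 CPM in WT and 7.84, 7.54 and 7.26 CPM in LC3b-/-, with a log2 fold change of -0.24 (SE 0.47). The endothelium markers, which summed to 1293, 1145, 509 and 409 CPM in WT and 1675, 1715 and 1470.1 CPM in LC3b-/-, had their lowest values in WT F3 and M1, as Cxcl16 and Cx3cl1 did. The part of endothelial transcripts in both ligands was not tested.

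Proteases that release or cut chemokines were compared in the same fit. Of the 9 that were tested, 7 had a positive and 2 a negative log2 fold change, and 6 and 1 of them had an unadjusted p under 0.05. Of all genes tested, 13.5% were higher and 10.6% lower at that mark. None of the proteases was called by edgeR. Mmp3 read 14.5, 15.5, 8.46 and 6.07 CPM in WT and 68.2, 59.4 and 39.98 CPM in LC3b-/- (log2 fold change 2.33, adjusted p = 0.0580), and Mmp12, a macrophage elastase, read 6.14, 7.29, 3.41 and 2.27 CPM in WT and 13.3, 22.9 and 22.8 CPM in LC3b-/- (log2 fold change 2.04, adjusted p = 0.0906). Both lay higher in every LC3b-/- library than in any WT library. Adam17 was 29.3, 21.6, 21.3 and 24.7 CPM in WT and 44.6, 36.1 and 37.1 CPM in LC3b-/-, again without overlap.

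Ccl25 was the member that lay lower in every LC3b-/- library. It is the ligand of Ccr9, which guides T cells to thymus and gut. It read 6.73, 8.15, 7.45 and 7.53 CPM in the 4 WT libraries (F1, F2, F3, M1) and 3.30, 3.86 and 5.90 CPM in LC3b-/- F1, F3 and M. The WT libraries were close together, and among the LC3b-/- libraries M was nearest to them. Its log2 fold change of -0.78 (SE 0.24, edgeR adjusted p = 0.130) ran from -1.06 to -0.61 in the settings tried. The gene shares exon bases on the opposite strand with Elavl1, whose log2 fold change was -0.03. The sum of the RPE markers had the same order in the LC3b-/- libraries, at 14424, 17227 and 30329 CPM. In WT the sums were 32971, 32340, 40415 and 50947 CPM, and F2, with the lowest, had the highest Ccl25. The part of RPE transcripts in Ccl25 was not tested. The receptor Ccr9 read 25, 2, 20 and 22 counts in WT and 14, 3 and 5 counts in LC3b-/- (log2 fold change -1.25, adjusted p = 0.433), with few counts in WT F2 as well, and it shares exon bases with the abundant antisense gene Slc6a20a. Ackr4, which takes up Ccl19, Ccl21 and Ccl25, was 4.64 ± 1.26 CPM in WT (SD, n = 4) and 4.54 ± 1.06 CPM in LC3b-/- (SD, n = 3).

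Ccl19 and Ccl21 are the ligands of Ccr7 that bring dendritic cells and naive lymphocytes to lymphatic vessels and lymph nodes. Ccl21a read 1.52, 2.03, 0.524 and 2.77 CPM in WT and 10.5, 3.68 and 3.63 CPM in LC3b-/- F1, F3 and M, without overlap. LC3b-/- F1 stood well above the rest, and the log2 fold change of 1.79 (SE 0.61, adjusted p = 0.146) was 1.09 without it. The value is uncertain for another reason, since the mouse genome carries copies of this gene. Ccl21d matches Ccl21a at 97.5% over 887 bases, and Ccl21b, Ccl21d and Ccl21f were identical over the bases aligned. Ccl21d read 0, 87, 55 and 52 counts in WT, with 0 in F1, while Ccl21f read 44 in WT F1 and 0 in the other libraries. With the copies summed, a step added after the data were seen, the counts were 96, 136, 69 and 124 in WT and 313, 184 and 169 in LC3b-/-, and the log2 fold change was 0.90 (adjusted p = 0.264), with LC3b-/- M and F3 no longer clear of WT in CPM.

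Ccl19 had a log2 fold change of 0.44 alone and 0.42 with its 9 listed copies and pseudogenes summed. Ccr7 read 2.16, 2.69, 0.636 and 0.346 CPM in WT and 2.41, 1.55 and 7.82 CPM in LC3b-/-. Its levels overlapped, and LC3b-/- M was the highest. The log2 fold change of 1.43 (SE 0.82, adjusted p = 0.321) was 0.44 without that library and 0.11 in the females alone.

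Cxcl1, Cxcl2, Cxcl3 and Cxcl5 attract neutrophils through Cxcr2. Cxcl3 was low, at 14, 4, 6 and 9 counts in the WT libraries (F1, F2, F3, M1) and 36, 28 and 17 counts in LC3b-/- F1, F3 and M, or 0.409, 0.166, 0.225 and 0.346 CPM against 1.45, 0.701 and 0.502 CPM. The groups did not overlap, but LC3b-/- M and WT F1 were close. This was a log2 fold change of 1.59 (SE 0.55, adjusted p = 0.148), or 1.05 without LC3b-/- F1. Cxcl3 and Cxcl2 share 116 bases at 98.3% identity, so that some counts could be assigned to either.

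Cxcl2 read 16.9, 11.1, 9.88 and 13.8 CPM in WT and 20.1, 15.5 and 15.2 CPM in LC3b-/-, a log2 fold change of 0.39 (SE 0.22, adjusted p = 0.313). WT F1 lay among the LC3b-/- libraries. Cxcl1, an abundant ligand, read 123, 69.5, 21.9 and 35.5 CPM in WT and 74.9, 56.5 and 138 CPM in LC3b-/-. The spread within each group covered most of the range, with WT F1 and LC3b-/- M high and WT F3 low, and the log2 fold change was 0.53 (SE 0.58, adjusted p = 0.611). Cxcl5 had a log2 fold change of 0.98 (SE 0.67). The receptor Cxcr2 had between 1 and 13 counts in a library, and of the neutrophil genes in the marker list Mpo was at 0 and Ly6g, Ngp, Retnlg, Mmp8 and Elane were too low to test. The other 6 of the 12 genes were tested, with 4 higher and 2 lower. Ltf and Lcn2, which glands and epithelia also make, were higher at an unadjusted edgeR p under 0.05, as were 13.5% of all genes tested. The 3 promoters with the shared stretch GGGAATTTCCC belong to ligands with log2 fold changes from 0.39 to 1.59. Of these, Cxcl3, which passed the filter through LC3b-/-, had an unadjusted p under 0.05. The other tested members with an NF-kB match were Ackr2 (0.64), Ccl9 (0.50), Cxcl10 (-0.05) and Ccr1 (-0.38). The part of the match in these changes was not tested.

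The interferon-induced ligands Cxcl9, Cxcl10 and Cxcl11 bind Cxcr3 on activated T cells. Cxcl10 read 127, 58.1, 16.8 and 21.8 CPM in WT and 44.2, 37.2 and 81.2 CPM in LC3b-/-, with its highest level in WT F1 and its lowest in WT F3. The log2 fold change was -0.05 (SE 0.69), with no difference beyond the spread, and its sign depended on the library left out. Cxcl9 was close to 0 as well (-0.04, SE 0.73), and Cxcl11, a low-level member, was 0.884 ± 0.598 CPM in WT (SD, n = 4) and 2.20 ± 0.680 CPM in LC3b-/- (SD, n = 3), a log2 fold change of 1.30 with an adjusted p of 0.209. Of 18 interferon response genes 11 were higher and 7 lower, 1 each at an unadjusted p under 0.05 (Oasl2 higher, 0.96, and Ifit3 lower, -0.41). At that mark 13.5% of all genes tested were higher and 10.6% lower. Cxcr3 had 0 to 28 counts in a library.

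Cxcl12 signals through Cxcr4 and is removed by the scavenger Ackr3, and it is a homeostatic product of stromal cells. It read 291, 187, 51.04 and 50.7 CPM in the 4 WT libraries (F1, F2, F3, M1) and 244, 119.6 and 547 CPM in LC3b-/- F1, F3 and M. LC3b-/- M was the highest and WT F3 and M1 the lowest, while WT F1 lay above LC3b-/- F1 and F3. Over the groups the log2 fold change was 1.07 (SE 0.74, adjusted p = 0.408), which became 1.66 when WT F1 was left out and 0.33 when LC3b-/- M was.

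Cxcr4 read 18.1, 11.8, 6.77 and 10.03 CPM in WT and 16.8, 16.9 and 35.5 CPM in LC3b-/-. Its highest library was again LC3b-/- M, and WT F1 lay above LC3b-/- F1 and F3. The log2 fold change was 0.98 (SE 0.39, adjusted p = 0.185), with an unadjusted p under 0.05 for this receptor alone among the 8 signalling receptors tested, and it was 0.53 without LC3b-/- M. Ackr3 read 77.8, 66.1, 81.7 and 81.3 CPM in WT and 59.5, 58.3 and 68.5 CPM in LC3b-/-. The difference was small, -0.30 (SE 0.12, adjusted p = 0.181), and WT F2 lay below LC3b-/- M. Its log2 fold change was between -0.44 and -0.27 in the settings tried, without a change of sign.

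The monocyte and eosinophil ligands Ccl2, Ccl7, Ccl8, Ccl11 and Ccl12 lie together on chromosome 11. Ccl2, the main ligand of Ccr2, read 29.9, 14.9, 4.75 and 6.65 CPM in WT and 11.7, 5.53 and 38.98 CPM in LC3b-/-. Ccl11, or eotaxin, read 65.4, 58.4, 9.73 and 11.4 CPM in WT and 29.8, 13.9 and 106 CPM in LC3b-/-. Both were highest in LC3b-/- M and next in WT F1, and both were low in WT F3, WT M1 and LC3b-/- F3. Their log2 fold changes were 0.41 (SE 0.80) and 0.46 (SE 0.89), neither beyond the spread, and both had the opposite sign without LC3b-/- M (-0.71 and -0.73). Ccl7 had a log2 fold change of 0.35 (SE 0.68), Ccl8 of 0.78 (SE 0.58) and Ccl12 of -0.64 (SE 0.63). The receptor Ccr2 was 1.91 ± 0.838 CPM in WT (SD, n = 4) and 2.14 ± 0.459 CPM in LC3b-/- (SD, n = 3). Ccr3, the eotaxin receptor, had at most 4 counts in a library.

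Several of the ligands above shared an order of libraries. Cxcl12, Ccl11, Ccl2, Ccl7, Cxcl1 and Cxcl10, a set chosen after their values were seen, were each highest in LC3b-/- M or WT F1 and lowest in WT F3 or M1. The 10 fibroblast and mural markers summed to 2001, 1308, 700.1 and 630.5 CPM in the WT libraries (F1, F2, F3, M1) and to 1723, 1337 and 2458 CPM in LC3b-/- F1, F3 and M, with the same libraries at both ends, and 9 of 10 had a positive log2 fold change, 1 of them at an unadjusted p under 0.05. At that mark 13.5% of all genes tested were higher. The part of stromal cells in these ligands was not tested. Over the whole family, 31 of the 43 tested members had their lowest level in WT F3 or WT M1. Of the same 43, 29 had their highest in an LC3b-/- library, 14 of these in M and 10 in F1. The same counts were not made over all genes, so they cannot tell an order of the family from one of genes at large. The summed level of the 60 members was 958, 639, 308 and 341 CPM in the WT libraries (F1, F2, F3, M1) and 728, 554 and 1264 CPM in LC3b-/- F1, F3 and M, so that the groups overlapped.

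**Figure D3:**
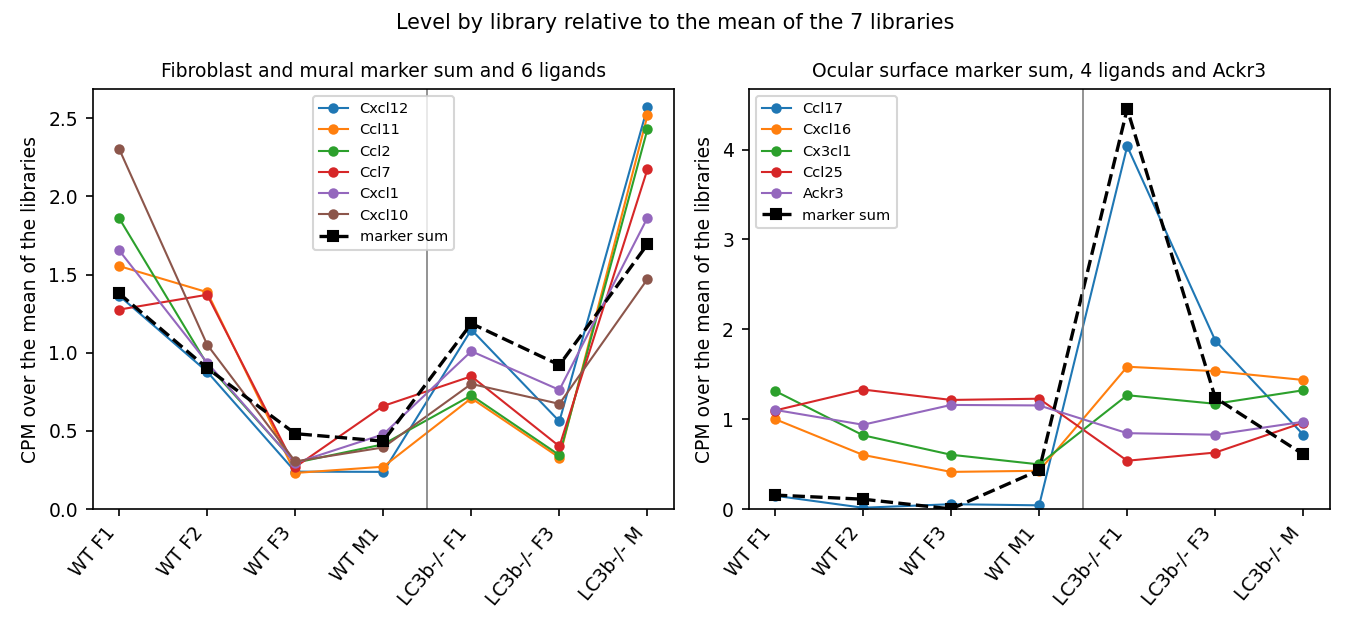
Level of each gene and of a marker sum in the 7 libraries, divided by its mean over those libraries (the grey line divides WT, left, from LC3b-/-, right). On the left, 6 ligands and the sum of fibroblast and mural markers (dashed) are high in WT F1 and LC3b-/- M and low in WT F3 and M1, and on the right Ccl17 and the sum of ocular surface epithelium markers (dashed) peak in LC3b-/- F1, while Cxcl16 lies higher and Ccl25 lower in each LC3b-/- library than in any WT library.

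Ligands that draw monocytes and T cells, among them those of Ccr1, gave no common direction. Ccl3 and Ccl4, made by activated macrophages, had log2 fold changes of -0.30 (SE 0.46) and -0.28 (SE 0.57), while Ccl5 (0.46, SE 0.37), Ccl6 (0.56, SE 0.31) and Ccl9 (0.50, SE 0.21) lay on the other side of 0. None of the 5 had an unadjusted p under 0.05. Ccr1 was 0.669 ± 0.190 CPM in WT (SD, n = 4) and 0.514 ± 0.154 CPM in LC3b-/- (SD, n = 3). Macrophage and microglia markers split evenly, 9 higher and 9 lower of 18, and summed to 426 to 633 CPM in WT and 390 to 643 CPM in LC3b-/-. T and NK cell markers summed to 5.39 to 19.3 CPM in WT and 10.5 to 22.5 CPM in LC3b-/-, with 11 of 13 higher and 0 at an unadjusted p under 0.05.

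The epithelial and glandular ligands differed from library to library. Cxcl14, a constitutive ligand of epithelia and fibroblasts, read 4.39, 5.09, 2.25 and 2.11 CPM in WT and 4.30, 11.8 and 6.85 CPM in LC3b-/- F1, F3 and M. Its log2 fold change was 1.15 (SE 0.45, adjusted p = 0.182), with WT F1 and F2 above LC3b-/- F1. Ccl28, a mucosal ligand of Ccr10 and Ccr3, read 0.848, 0.911, 0.636 and 0.999 CPM in WT and 0.805, 5.28 and 1.15 CPM in LC3b-/-. LC3b-/- F3 stood apart from the other 6 libraries, and the log2 fold change of 1.51 (SE 0.66, adjusted p = 0.211) was 0.18 without it.

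Cxcl17, a mucosal ligand named here after its values were seen, had 8, 11, 0 and 1 counts in WT and 4, 436 and 0 counts in LC3b-/- F1, F3 and M, which left it below the filter. Nearly all counts of Cxcl17 lay in LC3b-/- F3, the library that stood apart for Ccl28 as well. The same library held the most Ltf, the gene of lactotransferrin, a protein of tears, glands and neutrophil granules, at 60.6, 208 and 0.915 CPM in LC3b-/- F1, F3 and M against 0.351, 0.993, 0.299 and 0.845 CPM in WT. The part of glandular transcripts in Ccl28 and Cxcl17 was not tested. Ccl27a, the skin ligand of Ccr10, had a log2 fold change of -0.28 (SE 0.23), and -0.23 with 4 listed copies summed. Cxcl13, the B cell ligand of Cxcr5, was 0.443 ± 0.416 CPM in WT (SD, n = 4) and 0.710 ± 0.674 CPM in LC3b-/- (SD, n = 3), and Ccl24 0.431 ± 0.106 and 0.430 ± 0.423 CPM. The vascular scavenger Ackr1 was 2.97 ± 0.859 CPM in WT and 6.05 ± 4.30 CPM in LC3b-/-, highest in LC3b-/- F3, and it shares exon bases with Cadm3. Ackr2, the scavenger of inflammatory Ccl ligands, had a log2 fold change of 0.64 (SE 0.53).

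Genes around the family were compared in the same fit, and none of the lists below held a gene called by edgeR. Of all genes tested, 13.5% were higher and 10.6% lower at an unadjusted p under 0.05. Of 8 tested relatives of the family, 5 were higher and 3 lower. Cmklr1, the chemerin receptor, and Ccrl2, a non-signalling relative, lay higher in every LC3b-/- library than in any WT library (log2 fold changes 1.14 and 1.13, adjusted p = 0.0951 and 0.102), and Mif lay lower in each (-0.70, adjusted p = 0.135). Of 29 genes of receptor signalling, 27 were higher and 2 lower, 9 and 0 at an unadjusted p under 0.05, with a median of 0.51. Pik3r5, a PI3 kinase subunit driven by G proteins, read 4.21, 4.06, 2.58 and 1.77 CPM in WT and 7.68, 8.71 and 12.4 CPM in LC3b-/-, and Grk2, the kinase that desensitises chemokine receptors, read 52.2, 39.1, 34.8 and 33.3 CPM in WT and 82.9, 67.6 and 58.1 CPM in LC3b-/-. Neither gene overlapped between the groups.

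The NF-kB pathway, which drives many inflammatory ligands, had 19 of 21 genes higher and 2 lower, 12 and 0 at an unadjusted p under 0.05, and 10 without overlap, with a median log2 fold change of 0.65. Bcl3, a nuclear cofactor of NF-kB, read 22.6, 13.3, 7.03 and 10.4 CPM in WT and 80.6, 42.4 and 42.2 CPM in LC3b-/- (log2 fold change 2.04, adjusted p = 0.0906), and Nfkb2 read 31.5, 18.7, 16.02 and 16.6 CPM in WT and 50.4, 37.7 and 41.96 CPM in LC3b-/- (log2 fold change 1.07, adjusted p = 0.0960). Of the cytokines that induce chemokines 6 were tested and all 6 were higher, 1 at an unadjusted p under 0.05. Tnf read 6.08, 3.56, 2.47 and 2.80 CPM in WT and 8.65, 10.9 and 4.75 CPM in LC3b-/-, and Il6 read 46.99, 21.6, 10.6 and 11.2 CPM in WT and 39.5, 24.3 and 96.9 CPM in LC3b-/-, with WT F1 above the lowest LC3b-/- library for each. Il17a, Ifng, Ifnb1, Il4 and Il13 were too low to test. Among all genes 51.2% were higher. WT F1 was the WT library with the highest sum over the NF-kB genes (1294, 869, 654 and 716 CPM in WT, 1539, 1317 and 1390.2 CPM in LC3b-/-).

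Among the cells that carry chemokine receptors, mast cell markers were higher for 6 of 6 genes, 5 at an unadjusted p under 0.05, and summed to 16.2, 10.4, 3.03 and 7.95 CPM in WT and 51.7, 20.4 and 138 CPM in LC3b-/-. At that mark 13.5% of all genes tested were higher. Cma1 and Mcpt4, the mast cell proteases, had log2 fold changes of 2.84 and 2.66 (adjusted p = 0.0869 and 0.0960). Of 12 neutrophil markers 6 were tested. Ltf (7.19) and Lcn2 (3.02), which glands and epithelia also make, had an unadjusted p under 0.05, whereas the log2 fold changes of S100a9 (1.28), Camp (0.0034), Csf3r (-0.33) and S100a8 (-0.76) did not pass that mark. B cell markers were 2 higher and 4 lower, dendritic cell markers 5 higher and 1 lower with 0 at an unadjusted p under 0.05, and lymphatic endothelium markers 5 higher and 1 lower. Photoreceptor markers were lower for 12 of 12 genes with 0 at an unadjusted p under 0.05, Muller glia and astrocyte markers, among them Apoe and Clu, which RPE also expresses, for 6 of 8, and erythrocyte markers for 1 of 5. Cx3cr1, Lyve1, Xcr1, Mmp8 and Elane stand in more than 1 list.

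**Figure D4:**
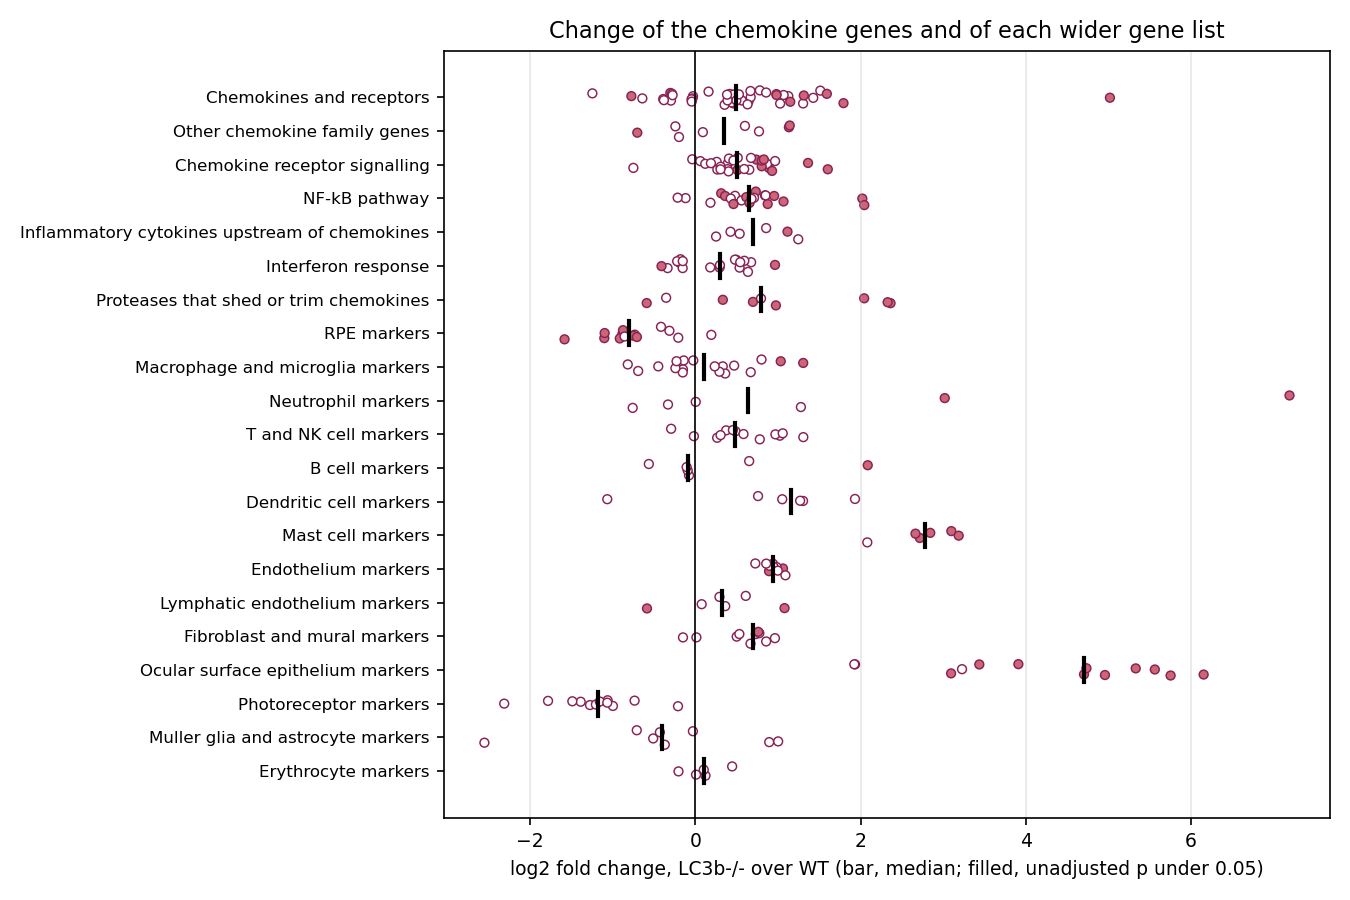
Fitted log2 fold change in LC3b-/- over WT RPE of the tested members (top) and of the tested genes of each wider list, 1 point per gene, filled where the unadjusted p is under 0.05, with a bar at the median. The members' median is 0.50, the NF-kB pathway lies at 0.65, RPE markers at -0.80 and ocular surface epithelium markers at 4.70.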

How the data were processed

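RNA of RPE from 4 WT and 3 LC3b-/- mice was sequenced as 100-base single reads. The table deposited by the authors holds estimated counts for each gene, made with salmon against GENCODE transcripts (GRCm39), summed to genes with tximeta and stored as whole numbers; 7 columns were used and 0 left unused. Symbols and coordinates came from a later GENCODE release on GRCm39 (51721 of 52740 identifiers matched).

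Counts were tested in R 4.3.3 with edgeR 4.0.16: filterByExpr (16990 genes), TMM and the quasi-likelihood test, where p-values were adjusted by Benjamini-Hochberg across every gene tested. A call needed an adjusted p under 0.05 and a fold of at least 1.5. CPM are TMM-scaled. DESeq2 1.42.0, which the study used, and voom of limma 3.58.1 were alternatives, beside other scalings and filters, sex, the replicate block, females alone and each library left out. The replicate block groups libraries by replicate label. Only F1 and F3 occur in both groups, so WT F2, WT M1 and LC3b-/- M add nothing to its genotype difference. The code was tested on simulated data. Near-identical copies were sought by BLAST 2.17.0+, at 95% identity and 100 aligned bases or more.

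Members and lists were chosen with earlier results of these data known. Members named with every library's value had an unadjusted p under 0.05, no overlap between groups, one of the 10 highest mean CPM or one of the 5 largest changes, and their partners are given with group means. In each library 3 counts was taken as the floor. No p over the list was computed. Counts cover all members, but 1 tested member is not reported here by name.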

Additional observations from a re-analysis of the deposited data

How the results depend on the processing

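Against 0 members called with edgeR, DESeq2 called 4, the fit without a filter 1, the model with a sex term 1, and the fits that leave out 1 library 0 to 2. Members at an unadjusted p under 0.05 numbered 8 (18.6%, against 24.1% of all genes), but 13 without a filter (23.2% against 16.4%), 5 with the replicate block (11.6% against 17.0%) and 5 (without WT M1) to 11 with 1 library left out (11.6% to 25.6%, against 13.8% to 28.6%). Members without overlap numbered 5 (11.6%, against 22.3%), but 9 without a filter (16.1% against 15.6%), 12 in the females alone (26.1% against 42.5%) and 5 to 12 with 1 library left out (11.6% to 27.9%, against 25.3% to 39.2%), where 12 were found without WT F1 or LC3b-/- M and 8 without LC3b-/- F1. The share of all genes without overlap was larger in every fit with fewer libraries than in that with 7. Higher members numbered 30 of 43 (69.8%), 23 of 32 with at least 10 counts in every library and 38 of 56 without a filter. Over the other settings their share ran from 56.5% (26 of 46, females alone) to 83.7% (36 of 43, voom). The shares of all genes in these 2 fits were 48.6% and 51.8%. The median ran from 0.08 (females alone) to 0.83 (without WT F1), with an SD of 0.48 between libraries of a group. Scalings moved the median of all genes by less than 0.1 on the log2 scale.

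Of 270 single-gene values from these alternatives, 249 kept their direction and side of the threshold, 9 moved past the threshold and 12 reversed. The log2 fold change of Ccl11 was -0.32 with the replicate block, -1.03 in the females alone and -0.73 to 0.91 with 1 library left out. For Ccl2 it was -0.59, -0.95 and -0.71 to 1.10. For Cxcl1 it was -0.12 in the females alone. For Cxcl10 it was 0.53 with voom, 0.0113 with a sex term and -0.46 to 0.75 with 1 library left out. The causes of these shifts were not tested.

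The replicate numbers shared by the groups (F1 and F3) gave correlations of 0.15 and 0.24 between the deviations of same-numbered libraries. With 2 such pairs and no label that says what the numbers mark, they share only a number. With the replicate block, whose genotype difference rests on those 2 pairs, edgeR called 0 genes. A sex by genotype term, added after the data were seen and resting on 1 male per group, had an adjusted p under 0.05 for 0 of 43 members and an unadjusted p under 0.05 for 6 (14.0%, against 3.59% of all genes). Depth limits the low members, since 1 CPM stands for 24.2 to 39.9 counts in a library.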
